A study of Mus musculus with 5 samples.

Results

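A set of 30 genes that make, take up, move, store and export cholesterol were followed in hepatocytes of mice that had been fed or had gone without food for up to 24 h. The genes were listed by symbol and grouped by function, and all 30 were among the 32285 genes of the deposited table. They comprised 19 enzymes of synthesis, 5 regulators, 2 genes of transport within the cell and storage, 1 gene acting on uptake and 3 transporters of export. Hepatocytes came from male wild-type C57BL/6J mice on normal chow. For 3 days food was withdrawn for 16 h overnight and returned for 8 h of daytime, and on the last day the drinking water held 20% sucrose. The fed library was made at hour 13, after 4 h of feeding, and food and sucrose were then withdrawn for 4, 8, 16 or 24 h, which fell on hours 17, 21, 5 and 13. Fasting time and hour of the day therefore cannot be told apart, except between the fed and the 24 h library, which share an hour. There was 1 library per time point, made with a 10x 3' kit, and the sources used here do not state how many animals each library came from. No test between time points was possible, every interval below is a 95% interval that covers counting error only, and each difference describes 2 libraries.

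Cholesterol is built from acetyl-CoA through mevalonate, farnesyl diphosphate, squalene and lanosterol. The transcription factor SREBP2, the product of Srebf2, switches on genes of this path after SCAP has carried it from the endoplasmic reticulum to the Golgi. When sterols are plentiful, INSIG proteins hold SCAP back. Oxysterols, which build up with cholesterol, activate LXR alpha (Nr1h3), a receptor that raises export genes such as Abca1, Abcg5 and Abcg8 and the uptake-limiting gene Mylip. The liver both makes cholesterol for the blood and disposes of it into bile.

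Each library held 10000 barcodes and between 40002260 and 68330252 UMIs (counted molecules). Barcodes with 1000 or more UMIs, 500 or more genes and 2 to 30% mitochondrial UMIs were taken as hepatocytes. This left 7826, 4567, 2716, 9125 and 4576 cells at 0, 4, 8, 16 and 24 h, in all 28810 of 50000 barcodes, with median depths of 5408, 12097, 15005, 4391 and 8979 UMIs and median mitochondrial shares of 11.9%, 19.1%, 9.79%, 13.7% and 16.3%. The 7 hepatocyte markers Alb, Apoa1, Apoc3, Fgb, Trf, Hpx and Ahsg summed to between 83442 and 115622 CPM (UMIs of a gene per 1000000 nuclear-encoded UMIs), and none was at 0. Endothelial markers summed to 85.2, 12.2, 11.5, 31.4 and 18.1 CPM in time order. Barcode sequences found in more than 1 library numbered 259, borne by 282 of the hepatocytes. In the 8 h library 3325 of the 10000 barcodes passed the limits on UMIs and genes, against 9363 to 10000 in the others. Many barcodes of the 4 h and 24 h libraries (5345 and 5400) had under 2% mitochondrial UMIs and were left out, against 2172, 576 and 234 at 0, 8 and 16 h.

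Below, a gene is called higher or lower where its CPM differed at least 2-fold between libraries and reached 10 CPM in either. All comparisons with the fed state share the fed library, so that they are given side by side and not as independent evidence. The 19 synthesis enzymes together stood at 3322 CPM in the fed library and then at 2027, 1632, 3078 and 2097 CPM in time order. This sum, led by abundant genes such as Sc5d, Hmgcs1 and Msmo1, was lowest at 8 h and highest among the fasted libraries at 16 h. At 16 h 12 of the 19 enzymes were nevertheless below fed, so that the sum does not stand for each enzyme. Called lower than fed were 4 of 19 enzymes at 4 h (6.04% of all 7299 tested genes), 10 at 8 h (11.2%), 2 at 16 h (3.6%) and 5 at 24 h (8.77%). No enzyme was called higher at any time, where 3.67%, 5.68%, 2.87% and 4.73% of all genes were. The median log2 ratio of the 19 enzymes to fed was -0.64, -1.02, -0.30 and -0.62 in time order, beside -0.091, -0.078, -0.017 and -0.10 for all tested genes.

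**Figure D1:**
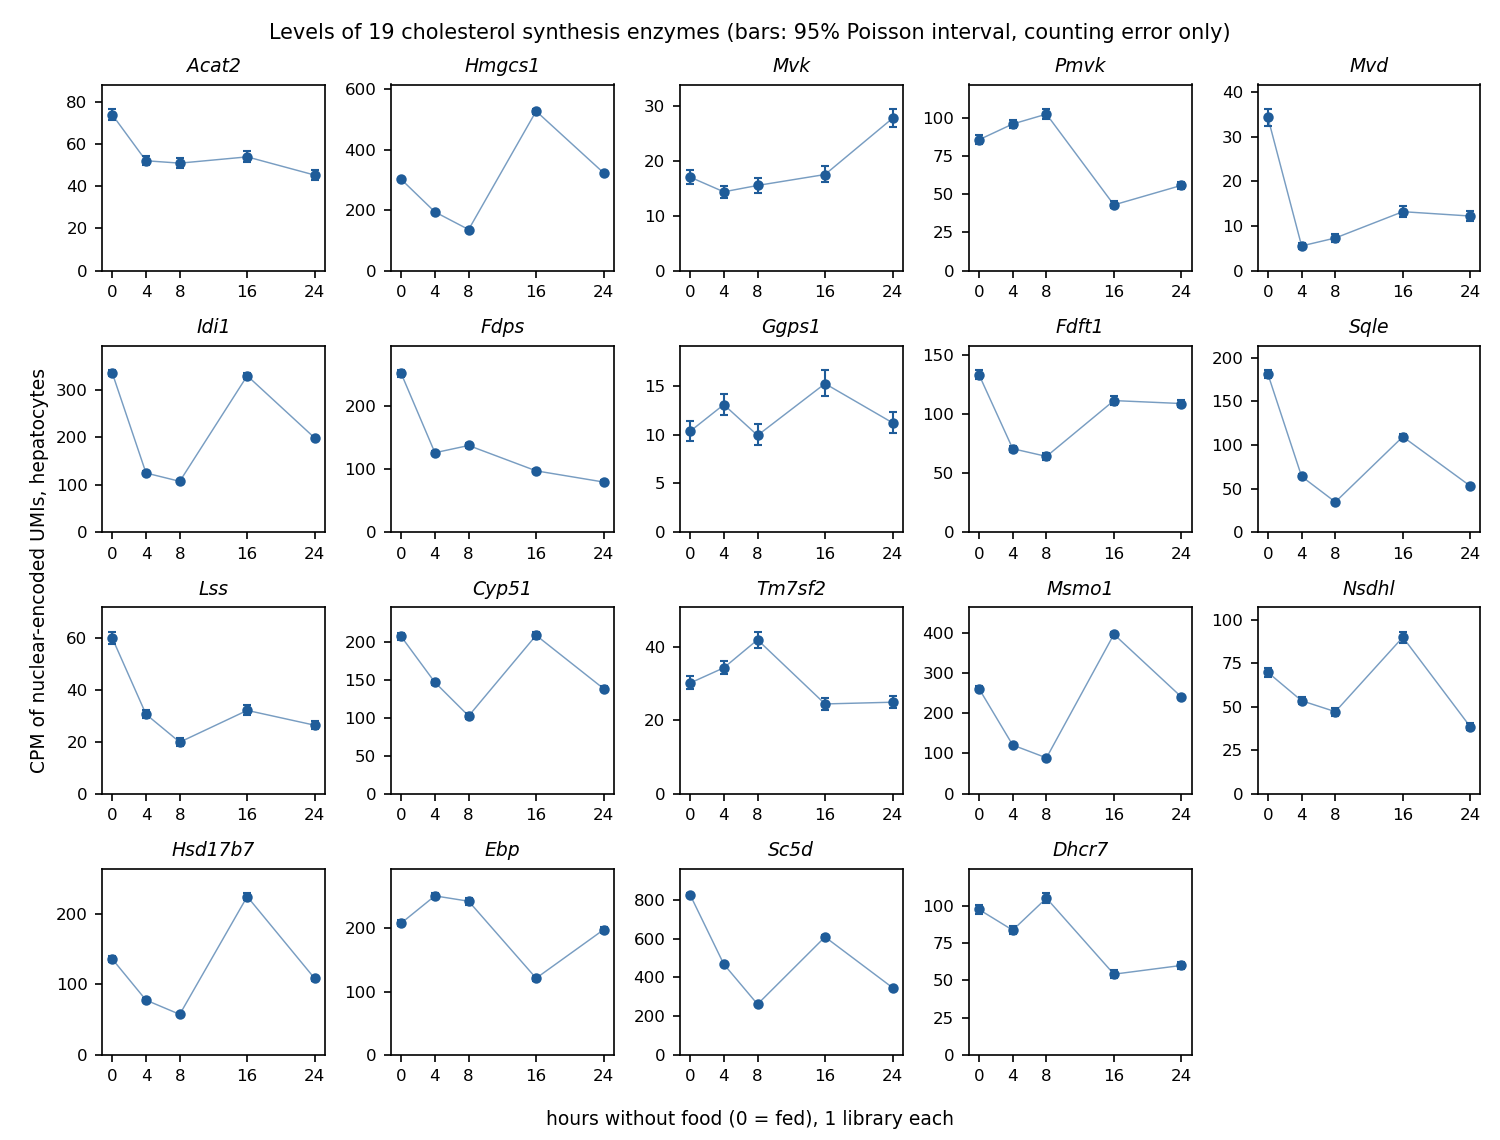
CPM of nuclear-encoded UMIs (y axis, from 0, scaled per gene) of the 19 synthesis enzymes against hours without food (x axis), 1 library per point, bars giving the 95% Poisson interval. Of the 19 enzymes, 10 had their lowest level at 8 h, 8 had their highest in the fed library and 6 had it at 16 h.

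The first steps lead from acetyl units to mevalonate. Hmgcs1, the cytosolic HMG-CoA synthase (chromosome 13, 119690379 to 119708260, plus strand, GRCm38), stood at 302 CPM in the fed library and at 194, 136, 527 and 323 CPM in the fasted ones. It was low at 4 and 8 h, and its highest level was at 16 h. Against fed, the 8 h library gave a log2 ratio of -1.15 (-1.20 to -1.10), the 16 h library 0.80 (0.77 to 0.84) and the 24 h library 0.098 (0.061 to 0.13). Acat2, which joins acetyl-CoA units, was below fed in every fasted library but was not called, with 73.8, 52.0, 50.9, 53.8 and 45.2 CPM. Mevalonate kinase, Mvk, was at 17.0, 14.4, 15.5, 17.5 and 27.7 CPM, its highest level being at 24 h.

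The next enzymes turn phosphomevalonate into the isoprenoid units that are then joined. Mvd, the mevalonate diphosphate decarboxylase, stood at 34.3, 5.56, 7.33, 13.2 and 12.2 CPM. The fed library was the highest, and Mvd was called lower at each time, with log2 ratios of -2.63 (-2.83 to -2.43), -2.23, -1.38 and -1.49. Idi1, the isopentenyl diphosphate isomerase, stood at 336, 125, 107, 330 and 199 CPM and was called lower at 4 h (-1.43) and 8 h (-1.65). At 16 h Idi1 did not differ from fed beyond counting error (-0.026, interval -0.062 to 0.011). Fdps, which makes farnesyl diphosphate, took another course, with 251, 125, 137, 96.9 and 79.2 CPM. It did not return at 16 h, where its log2 ratio was -1.37 (-1.43 to -1.31), and it was called lower at 24 h as well (-1.66, interval -1.72 to -1.60). With no lower mitochondrial limit the 24 h ratio was -1.01, and the ratio of 24 h to 16 h turned from -0.29 to 0.45. At 4 h Fdps lay just short of the 2-fold limit, at -0.999 (-1.05 to -0.95). Over the alternatives that value ran from -0.0998 with 2 to 15% mitochondrial UMIs to -1.56 with a profile subtracted as free RNA. The profile came from barcodes with under 1% mitochondrial UMIs, 4789 at 4 h, and was assumed to make up 10% of UMIs. Whether it is free RNA was not tested. Ggps1, a branch-point enzyme that makes geranylgeranyl diphosphate for protein prenylation, stayed between 9.93 and 15.2 CPM.

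Squalene is made, oxidised and closed into the ring of lanosterol by Fdft1, Sqle and Lss. Sqle, the squalene epoxidase and one of the controlled steps of the path, stood at 181, 63.9, 34.5, 109 and 52.8 CPM. It was highest in the fed library and was called lower at 4 h (-1.504), 8 h (-2.39, interval -2.48 to -2.30) and 24 h (-1.78, interval -1.85 to -1.71). Lanosterol synthase, Lss, followed with 60.1, 30.7, 19.9, 32.2 and 26.4 CPM and was called lower at 8 h (-1.60) and 24 h (-1.19). Fdft1, the squalene synthase, stood at 133, 70.7, 64.1, 111 and 109 CPM and was called lower only at 8 h (-1.06). The gene body of Fdft1 overlaps Ctsb on the other strand, and the sources used here do not state the strand setting of the counting.

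The late steps trim lanosterol to cholesterol, and here the enzymes parted. Msmo1, the sterol C4-methyl oxidase, stood at 261, 121, 88.6, 396 and 240 CPM. It was called lower at 4 h (-1.11) and 8 h (-1.56), and at 16 h its log2 ratio to fed was 0.60 (0.56 to 0.64). With trimmed-mean (TMM) scaling Msmo1 fell short of 2-fold at 4 h (-0.90). Hsd17b7, which reduces the C3 ketone after demethylation, had the same order of levels in the first 4 libraries, with 136, 77.8, 57.6 and 225 CPM, and stood at 108.5 CPM at 24 h. Cyp51, the lanosterol demethylase, stood at 208, 147, 103, 209 and 139 CPM, and Nsdhl, which works in the same C4 demethylation, at 69.8, 53.5, 47.2, 90.1 and 38.5. Sc5d, the sterol C5-desaturase, stood at 827, 469, 262, 609 and 347 CPM and was called lower at 8 h (-1.66) and 24 h (-1.25). Cyp51 overlaps Akap9, Lss overlaps 4930483K19Rik, Ggps1 overlaps Arid4b and Hmgcs1 overlaps Gm48342, each on the other strand.

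Ebp, Pmvk, Dhcr7 and Tm7sf2 ran the opposite way between 8 and 16 h. Ebp, the sterol isomerase that shifts the ring double bond, stood at 208, 251, 243, 121 and 198 CPM. Pmvk, the phosphomevalonate kinase, stood at 85.5, 95.8, 102, 43.0 and 55.7 CPM, and Dhcr7, the last reductase of one branch, at 97.5, 83.6, 105, 54.1 and 60.0. Tm7sf2, one of the sterol C14-reductases, stood at 30.2, 34.3, 42.0, 24.5 and 24.9 CPM, and it overlaps Vps51 on the same strand. All of them had their lowest level in the 16 h library, in which Hmgcs1, Msmo1 and Hsd17b7 had their highest. Tm7sf2 at 16 and 24 h did not differ beyond counting error, and for Tm7sf2 and Dhcr7 the lowest library changed to 24 h in some settings. The ratio of 24 h to 16 h ranged from -0.33 to 0.15 for Tm7sf2 and from -0.31 to 0.26 for Dhcr7. These enzymes were picked out after their values had been seen.

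**Figure D2:**
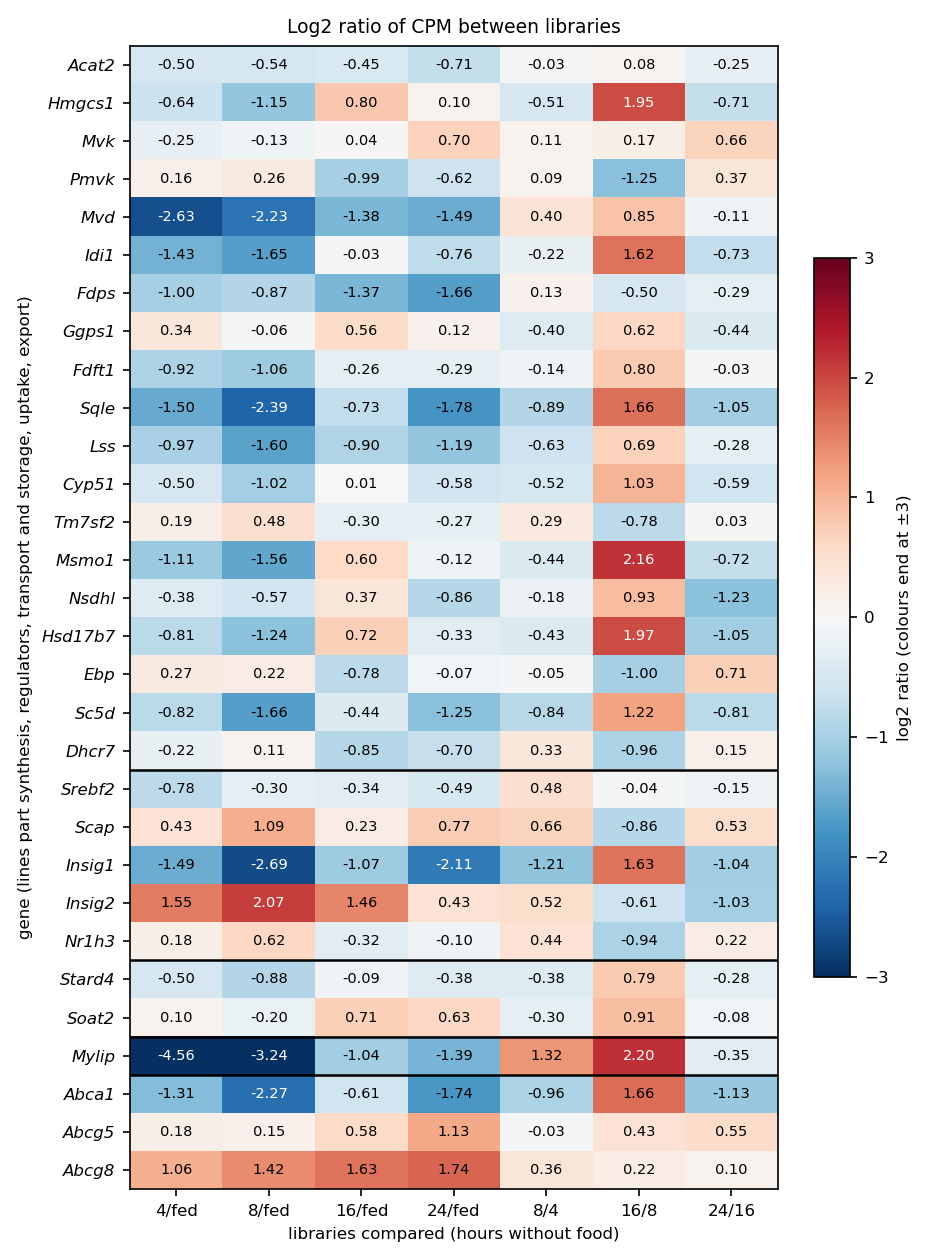
Log2 ratio of CPM between libraries (colour and printed value, red higher and blue lower in the later library) for the 30 members in rows and 7 comparisons in columns. Sqle (-2.39), Insig1 (-2.69) and Abca1 (-2.27) are deep blue and Insig2 (2.07) is red at 8 h against fed, and at 16 h against 8 h Msmo1 (2.16), Hsd17b7 (1.97) and Hmgcs1 (1.95) are red where Pmvk (-1.25) is blue.

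Each library was also compared with the one before, the first step, 4 h against fed, being given above. Called higher at 16 h than at 8 h were 9 members (10.5% of all tested genes), namely Hmgcs1, Idi1, Sqle, Cyp51, Msmo1, Hsd17b7, Sc5d, Insig1 and Abca1. With TMM scaling Cyp51 fell short of 2-fold (0.85, in place of 1.03). Pmvk and Ebp were called lower (7.25%), the latter at the limit with -1.003 (-1.06 to -0.95). With TMM scaling 5 were called lower, beside 864 of 7396 genes. The log2 ratio was 2.16 (2.10 to 2.22) for Msmo1, 1.97 (1.89 to 2.04) for Hsd17b7 and 1.95 for Hmgcs1. Between 4 and 8 h Insig1 alone was called lower (2.06% of all genes) and none was called higher (1.12%). Over the alternative settings that Insig1 ratio ranged from -1.25 to -0.68, short of 2-fold at its weakest. Between 16 and 24 h Sqle, Nsdhl, Hsd17b7, Insig1, Insig2 and Abca1 were called lower (5.78%) and none higher (5.19%). With 5 to 30% mitochondrial UMIs in place of 2 to 30%, a limit added after the data had been seen, 3 members were called lower from 16 to 24 h in place of 6, beside 398 of 7250 genes. With TMM scaling 2 were left, Nsdhl and Abca1, beside 328 of 7240 genes, and Sqle, Hsd17b7, Insig1 and Insig2 lay between -0.935 and -0.909.

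The stretches of DNA before the start sites of genes that moved apart between 8 and 16 h are shown because the path is known for a shared promoter layout. SREBP2 binds a sterol regulatory element and works beside the factor NF-Y, which binds the CCAAT box. RefSeq start sites (GRCm38.p6) were found for 25 of the 30 members, without Fdps, Fdft1, Sqle, Stard4 and Soat2. The 150 bases before the start site are given for Hmgcs1 (chr13:119690201-119690350, plus strand), Sc5d (chr9:42264301-42264450, minus strand) and Abca1 (chr4:53159896-53160045, minus strand), which were higher at 16 h than at 8 h, and for Pmvk (chr3:89454391-89454540, plus strand) and Ebp (chrX:8193513-8193662, minus strand), which were lower. Windows that overlap an annotated exon are not shown. Each is written 5' to 3' on the strand of its gene. Capitals mark CCAAT or its reverse complement ATTGG and, in Hmgcs1, the sterol element.
Hmgcs1: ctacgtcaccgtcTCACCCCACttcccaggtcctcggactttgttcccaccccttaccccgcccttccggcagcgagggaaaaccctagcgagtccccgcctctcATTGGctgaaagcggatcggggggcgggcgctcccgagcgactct
Sc5d: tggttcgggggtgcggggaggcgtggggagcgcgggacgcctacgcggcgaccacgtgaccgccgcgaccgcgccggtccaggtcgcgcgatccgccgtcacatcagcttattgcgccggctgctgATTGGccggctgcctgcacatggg
Abca1: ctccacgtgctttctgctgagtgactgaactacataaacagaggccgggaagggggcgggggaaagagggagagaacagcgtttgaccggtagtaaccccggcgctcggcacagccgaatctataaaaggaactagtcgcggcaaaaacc
Pmvk: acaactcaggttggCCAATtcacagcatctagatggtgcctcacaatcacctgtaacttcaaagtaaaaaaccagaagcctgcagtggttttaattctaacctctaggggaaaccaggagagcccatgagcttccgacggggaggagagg
Ebp: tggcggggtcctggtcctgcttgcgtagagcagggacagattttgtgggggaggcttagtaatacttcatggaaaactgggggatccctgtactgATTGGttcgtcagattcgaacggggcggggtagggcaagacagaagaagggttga
The CCAAT box lies 45 bases before the start site in Hmgcs1 and 24 bases in Sc5d, counted from its first base, and 55 bases in Ebp and 136 bases in Pmvk.

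Exact matches were counted on both strands in the 250 bases before the start site. CCAAT was present in 15 of the 16 matched synthesis genes (93.8%), Acat2 being without one, and in 37.5% of all 27025 genes with an entry. Among the other members 5 of 9 had it, namely Abcg8, Insig1, Insig2, Mylip and Srebf2, and Abca1 did not. The GC box GGGCGG was present in 14 of 16 synthesis genes, in 6 of the 9 other members and in 35.4% of all genes. The exact sterol element TCACNCCAC was found in 1 of 16, Hmgcs1, 137 bases before its start site, and in 1.22% of all genes. The E-box CACGTG was found in 3 of 16, in 3 of the 9 others and in 6.86% of all genes. The exact consensus of the DR4 element, the form bound by LXR with its partner RXR, was found in none of the 25 members and in 0.0148% of all genes.

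The regulators moved in different directions. Insig1 (chromosome 5, 28071363 to 28078662, plus strand) is itself a target of SREBP2 and so is often read as a measure of its activity. It stood at 1177 CPM in the fed library and then at 420, 182, 562 and 272 CPM. The fed library was the highest by far, and the fasted ones gave log2 ratios of -1.49 (-1.51 to -1.46), -2.69 (-2.73 to -2.65), -1.07 (-1.09 to -1.04) and -2.11 (-2.14 to -2.08). Insig2 (chromosome 1, 121304353 to 121332589, minus strand), whose liver transcript is known to rise in fasting and to be lowered by insulin, ran against it with 187, 547, 782, 512 and 252 CPM. It was called higher at 4 h (1.55), 8 h (2.07, interval 2.03 to 2.11) and 16 h (1.46). At 24 h Insig2 was back to a log2 ratio of 0.43 (0.39 to 0.48).

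Among the 11 members outside synthesis 10 were tested. Called lower were 2, 2, 1 and 2 in time order, beside 6.04%, 11.2%, 3.6% and 8.77% of all genes. Called higher were 2, 3, 2 and 2, beside 3.67%, 5.68%, 2.87% and 4.73%. Scap, the escort of SREBP2, stood at 44.0, 59.4, 93.8, 51.7 and 74.8 CPM and was called higher at 8 h (1.09, interval 1.01 to 1.18). Srebf2 stood at 69.8, 40.6, 56.7, 55.1 and 49.8 CPM and was not called at any time. Its lowest log2 ratio was -0.78 (-0.87 to -0.69) at 4 h. Nr1h3, which encodes LXR alpha, stood at 66.8, 75.6, 102, 53.4 and 62.4 CPM and was not called against fed either, and it overlaps Gm13783 on the same strand. Stard4, which carries sterols between membranes, stood at 138, 97.8, 75.0, 130 and 107 CPM, and Soat2, which esterifies cholesterol for storage and secretion, at 17.9, 19.2, 15.6, 29.3 and 27.6.

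**Figure D3:**
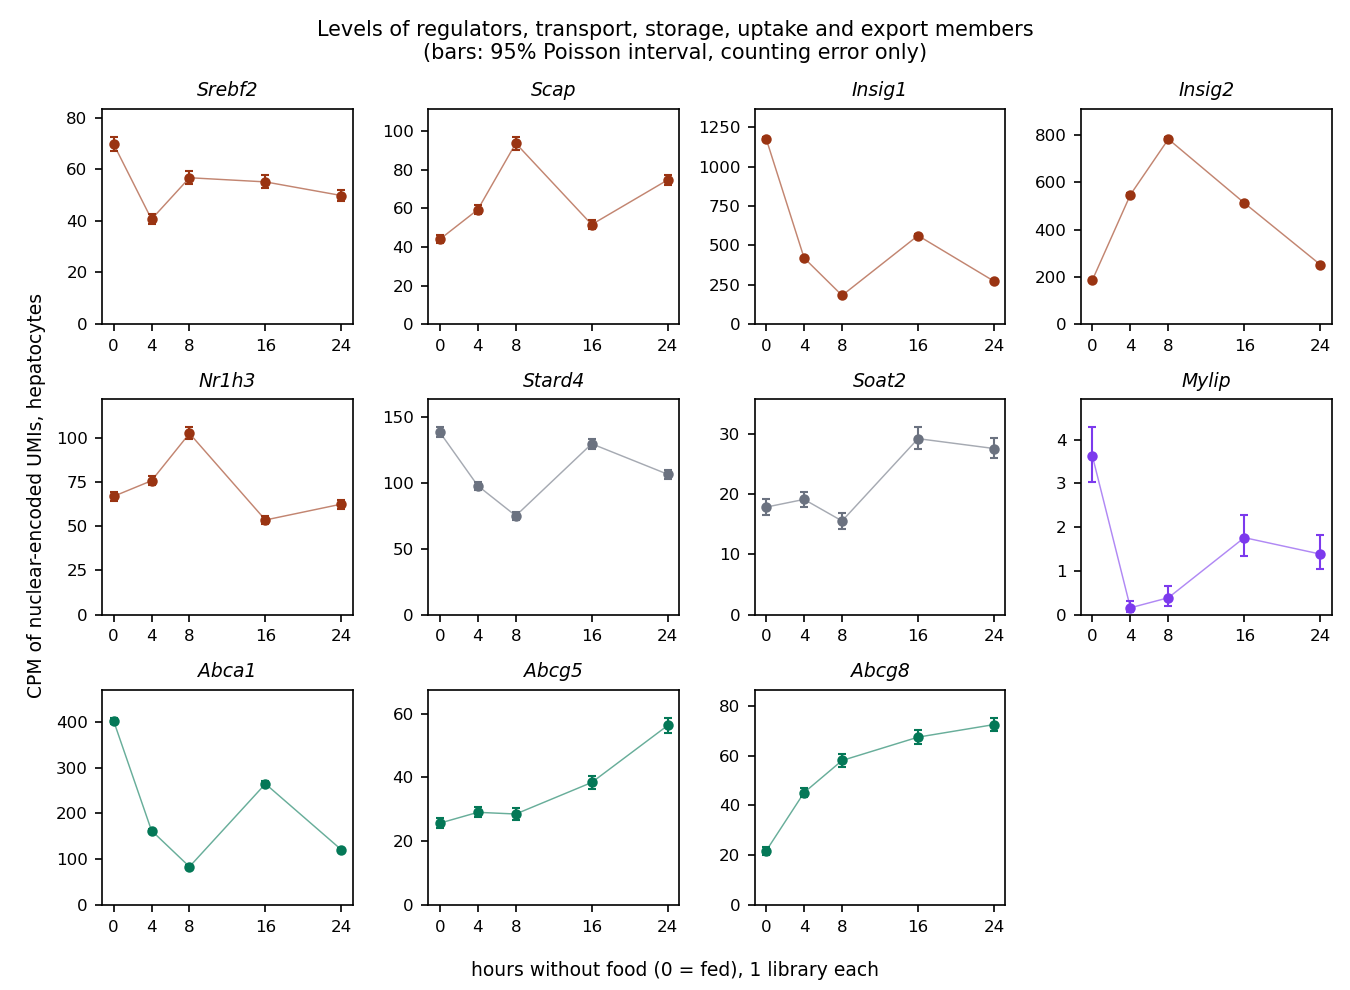
CPM of nuclear-encoded UMIs (y axis, from 0, scaled per gene) of the 11 regulator, transport, storage, uptake and export members against hours without food (x axis), 1 library per point, bars giving the 95% Poisson interval. Insig1 and Abca1 are highest in the fed library (1177 and 403 CPM), Insig2 is highest at 8 h (782 CPM), and Abcg5 and Abcg8 are highest at 24 h (56.3 and 72.4 CPM).

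The 3 exporters split. Abca1 (chromosome 4, 53030787 to 53159895, minus strand), which loads cholesterol onto apolipoprotein A-I at the cell surface, stood at 403, 162, 83.5, 265 and 121 CPM. Its levels had the same order as those of Insig1, and it was called lower at 4 h (-1.31), 8 h (-2.27, interval -2.33 to -2.21) and 24 h (-1.74). Abcg5 and Abcg8 encode the partner proteins that together form the transporter that sends sterols into bile. Abcg8 stood at 21.7, 45.1, 58.0, 67.4 and 72.4 CPM and was called higher at every time, with log2 ratios of 1.06, 1.42, 1.63 and 1.74 (1.63 to 1.85 at 24 h). Over the alternative settings Abcg8 at 4 h ranged from 0.82 to 1.27, and its ratio of 24 h to 16 h ranged from -0.31 to 0.22. Abcg5 stood at 25.6, 29.0, 28.5, 38.4 and 56.3 CPM and was called higher at 24 h (1.13, interval 1.02 to 1.24), with a range of 0.83 to 1.31 over the alternative settings. The partners lie head to head on chromosome 17 (84658234 to 84683011 and 84676302 to 84700333), and their annotated spans overlap on opposite strands. The overlap lies at the 5' end of both spans, whereas the kit was a 3' kit. How reads in it were counted is not stated in the sources used here.

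Mylip encodes a ubiquitin ligase that marks lipoprotein receptors for breakdown and so limits uptake. It stood at 3.63, 0.154, 0.384, 1.76 and 1.38 CPM, under the minimum of 10 CPM in every library, and was not called. After thinning to 1000 UMIs per cell, 0.463% of fed hepatocytes had a UMI of Mylip (0.325 to 0.641%), then 0.0439%, 0.00%, 0.167% and 0.153%, and the count of 0 at 8 h allows a share of up to 0.137%. Of the few endothelial barcodes, those with at least 1% of their UMIs and at least 3 genes in the endothelial list, 28.6% of 91 had one in the fed library and 64.3% of 14 at 8 h (35.1 to 87.2%). Without thinning the fed shares were 0.952% and 48.4%. The hepatocytes of these shares exclude the endothelial barcodes, whereas the CPM values include those that met the hepatocyte limits. The endothelial marker sum was highest in the fed library, as Mylip was, and low at 4 and 8 h, and its part in the Mylip values was not tested. Leaving out barcodes of other cell types moved the log2 ratio of Mylip at 8 h from -3.24 to -6.43. The other ratios moved less, from -4.56 to -4.54 at 4 h, from -1.04 to -1.33 at 16 h and from -1.39 to -1.77 at 24 h.

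The share of cells with a UMI was taken in cells thinned to 1000 UMIs (7772, 4558, 2685, 8978 and 4570 cells). Endothelial barcodes were left out of these. At a fixed depth that share follows the mean level closely, so that fewer expressing cells and less RNA per cell cannot be told apart from it. A UMI of Insig1 was found in 63.3%, 29.9%, 17.2%, 41.8% and 19.2% of them, in the order of its CPM. For Insig2 the shares were 16.3%, 37.8%, 53.8%, 39.6% and 19.8%. Without thinning they were 89.7% and 52.6% in the fed library and 80.4% and 97.0% at 8 h. Endothelial barcodes, which may transcribe both genes themselves, are given beside them. In the fed library, where their median depth was 1829 UMIs against 5443 in hepatocytes, 13.2% of 91 had Insig1 and 5.49% had Insig2. For Insig1 the later barcodes were 0 of 5, 2 of 14, 1 of 30 and 0 of 11, where the counts of 0 allow shares of up to 52.2% and 28.5%. For Insig2 they were 1 of 5, 1 of 14, 5 of 30 (16.7%) and 0 of 11.

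Hepatocytes were then split within each library by whether a UMI of Insig1 was seen after thinning. The 19 enzymes summed to 3483 CPM in fed cells with Insig1 and 2887 in those without. The sums were 2165 and 2070 at 4 h, 1760 and 1650 at 8 h, 3191 and 2771 at 16 h, and 2311 and 1960 at 24 h. The log2 ratio of the sums was 0.27 when fed (interval 0.23 to 0.31), 0.064 at 4 h, 0.093 at 8 h (-0.018 to 0.20) and 0.20 at 16 h (0.17 to 0.24). The 24 h library gave 0.24 (0.17 to 0.31). Taken gene by gene, the median log2 ratio of the enzymes was 0.26, 0.17, 0.093, 0.17 and 0.20, beside 0.039, 0.14, 0.016, 0.0048 and 0.15 for all genes. Of the enzymes with enough counts, 15 of 18, 12 of 18, 12 of 18, 15 of 19 and 14 of 19 were higher in cells with Insig1, beside 55.4%, 64.9%, 51.7%, 51.3% and 63.1% of all genes.

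The same split by Insig2 gave another picture at 16 h. There 3 of 19 enzymes were higher in cells with Insig2, and the sum was 2769 CPM against 3062 in cells without (log2 ratio -0.15, interval -0.18 to -0.11), where 54.8% of all genes were higher. At 0, 4 and 24 h 13 of 19, 13 of 18 and 13 of 19 were higher in cells with Insig2, beside 54.9%, 61.8% and 59.3% of all genes, and at 8 h 7 of 18, beside 50.3%. The sum was also lower in cells with Insig2 at 8 h, with 1639 CPM against 1705, but the interval of that log2 ratio included 0 (-0.057, -0.14 to 0.028). Cells of 1 library are not replicates, and these values describe single libraries.

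**Figure D4:**
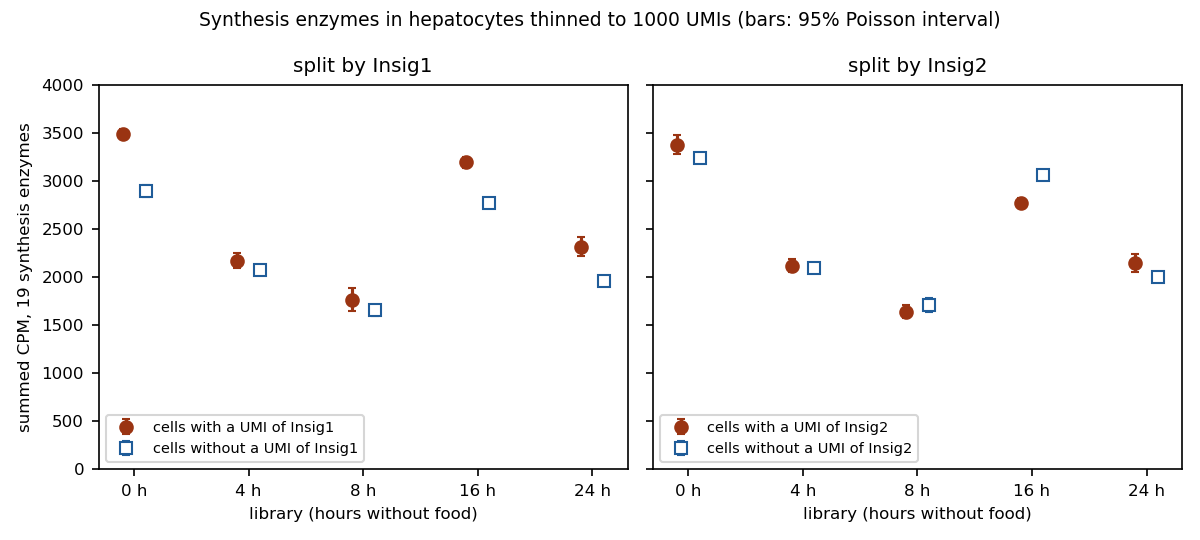
Summed CPM of the 19 synthesis enzymes (y axis, from 0) in hepatocytes thinned to 1000 UMIs, per library (x axis), in cells with a UMI of Insig1 (left) or Insig2 (right, filled circles) and in cells without (open squares), bars giving the 95% Poisson interval. Cells with Insig1 lie above those without in all 5 libraries, by 3483 against 2887 CPM when fed, and cells with Insig2 lie below at 8 h, by 1639 against 1705 CPM, and at 16 h, by 2769 against 3062 CPM.

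Position in the lobule was read from Cyp2f2, a portal gene, and Cyp2e1, a central gene. Hepatocytes of each library were ranked by the log2 difference of both and cut into 3 equal ranges, the portal, middle and central zones, which are stretches of a score and not measured positions. The central zone was shallower in every library, with a median of 2812 UMIs against 5719 in the portal zone when fed, 3091 against 18952 at 4 h, 10856 against 15602 at 8 h, 3857 against 4330 at 16 h and 3028 against 11202 at 24 h. At 24 h 12.8% of the central cells had no UMI of either gene. The median mitochondrial share of central and portal cells was 10.5% and 12.4% when fed, 17.2% and 20.5% at 4 h, 9.79% and 9.99% at 8 h, 13.4% and 14.2% at 16 h, and 11.1% and 18.4% at 24 h. The part of depth and of the mitochondrial share in the values below was not tested.

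In the fed library and at 4, 8 and 16 h most enzymes were higher in the central zone, although at 0 h with no lower mitochondrial limit and at 16 h with 2 to 15% 10 enzymes were higher in the portal zone (medians 0.049 and 0.11). Of those tested, 5 of 19, 4 of 18, 2 of 17 and 7 of 19 were higher in the portal zone, with median portal to central log2 ratios of -0.16, -0.47, -0.27 and -0.048, beside -0.071, -0.034, -0.047 and -0.092 for all genes. At 16 h the median of all genes leaned further to the central zone than that of the enzymes. At 24 h 15 of 19 were higher in the portal zone and the median was 0.24, where that of all genes was 0.16. With a limit of 1.5-fold, 6 members were called central at 4 h (5.14% of all genes) and 4 at 8 h (2.99%), and no member was called portal at these times (4.02% and 1.72%). In the fed library Mylip and Abcg8 were called central (5.57%) and Sqle portal (1.66%). No member was called at 16 h, where 4.87% of all genes were central and 2.27% portal. At 24 h Pmvk and Fdps were called central (11.9%) and Sqle, Lss and Dhcr7 portal (8.54%).

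**Figure D5:**
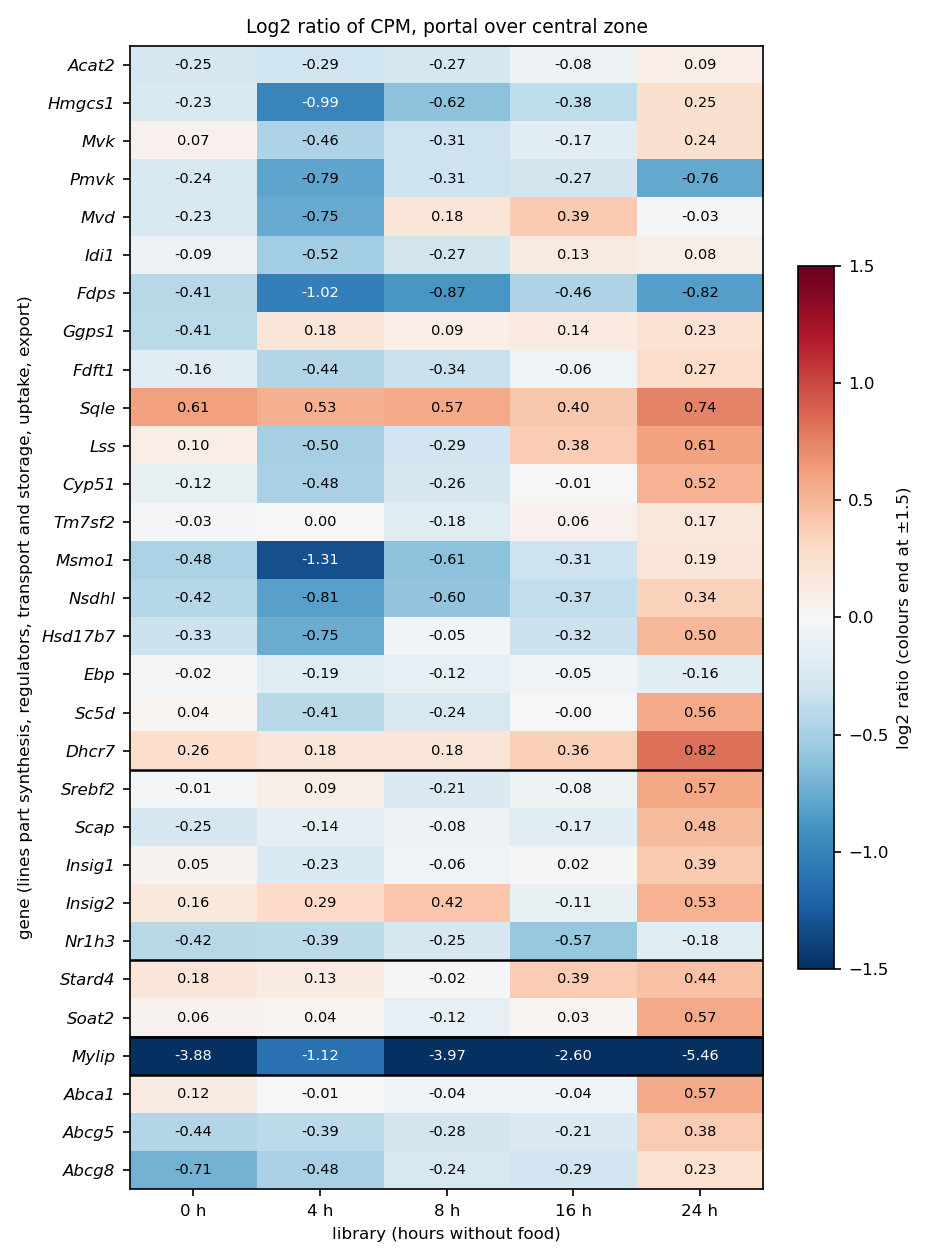
Log2 ratio of CPM in the portal over the central zone (colour and printed value, red portal and blue central) for the 30 members in rows and the 5 libraries in columns. Msmo1 (-1.31), Fdps (-1.02) and Hmgcs1 (-0.99) are deep blue at 4 h, Sqle is red in every library (0.61, 0.53, 0.57, 0.40 and 0.74) and Fdps is blue in every library.

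In the main setting Msmo1 had the steepest central lean at 4 h. It stood at 88.5 CPM in the portal, 101 in the middle and 220 in the central zone (log2 ratio -1.31, interval -1.40 to -1.22). Hmgcs1 stood at 155, 175 and 308 CPM in the same zones (-0.99, interval -1.06 to -0.92). At 4 h Msmo1 ranged from -1.40 to -0.39 over the alternative settings and Fdps from -1.61 to -0.87. Which of them leaned most was therefore not settled. At 24 h the portal to central log2 ratio was 0.19 for Msmo1 and 0.25 for Hmgcs1. Over the alternative settings the 24 h value ranged from -0.13 to 1.07 for Msmo1, so that its direction was not settled, and from 0.089 to 1.13 for Hmgcs1. Fdps was higher in the central zone of each library, with log2 ratios of -0.41, -1.02, -0.87, -0.46 and -0.82. Sqle, in contrast, was higher in the portal zone of each, with 205, 72.6, 41.1, 117 and 63.5 CPM there against 134, 50.4, 27.7, 88.7 and 38.1 in the central zone. Dhcr7 was also higher in the portal zone of each library, with 0.26, 0.18, 0.18, 0.36 and 0.82. Over the alternative ways of ranking and filtering, Sqle at 24 h ranged from 0.44 to 1.53 and Fdps at 24 h from -1.54 to -0.35.

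The zonal values depended on which barcodes were taken, most of all at 4 and 24 h. With 2 to 15% mitochondrial UMIs, 7 members were called portal and 2 central at 4 h, where 2142 and 913 of all 6880 genes were. At 24 h 20 members were called portal, beside 3458 of 7270 genes, so that the setting moved the table as a whole. In that setting Hsd17b7 at 4 h turned from a log2 ratio of -0.75 to 0.19, and Hmgcs1 moved from -0.99 to -0.0052. With 5 to 30%, no member was called in either direction at 24 h, beside 60 portal and 219 central of 6889 genes. Mylip was 12.2 CPM in the central and 0.828 CPM in the portal zone of the fed library (log2 ratio -3.88, interval -4.93 to -2.99). Mylip was the gene found in 28.6% of the fed endothelial barcodes, and without barcodes of other cell types 1 member in place of 2 was called central in the fed library, Abcg8. The portal to central log2 ratio of Insig2 was 0.16, 0.29, 0.42, -0.11 and 0.53 in time order, and Nr1h3 was higher in the central zone of each library (-0.42, -0.39, -0.25, -0.57 and -0.18).

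A list of 28 further genes of cholesterol handling was described in the same way, and 23 were tested. Called lower were 1 at 4 h (6.04% of all genes), 1 at 8 h (11.2%), 1 at 16 h (3.6%) and 3 at 24 h (8.77%). Called higher were 0, 1, 0 and 1 (3.67%, 5.68%, 2.87% and 4.73% of all genes). Osbp, a carrier that swaps sterol for a phosphoinositide at the Golgi, stood at 81.0, 37.4, 37.4, 46.7 and 30.3 CPM and was called lower at 4, 8 and 24 h (-1.11, -1.11 and -1.42). Cyp7a1, the rate-limiting enzyme of bile acid synthesis, stood at 72.6, 128, 71.4, 26.9 and 33.5 CPM. It was highest at 4 h and was called lower than fed at 16 h (-1.43, interval -1.54 to -1.32) and 24 h (-1.12). The TMM shifts given below, 0.21, 0.24 and 0.18 at 4, 8 and 24 h, end some of these calls. They take Osbp at 4 and 8 h and Cyp7a1 at 24 h short of 2-fold.

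Scaling bears on all of these ratios. TMM scaling in place of total UMIs raised every log2 ratio to fed by 0.21, 0.24, 0.061 and 0.18 in time order, and turned the split of all called genes at 8 h from 830 lower and 420 higher to 529 and 727. At 4 h the split went from 441 lower and 268 higher to 257 and 437, and at 24 h from 645 and 348 to 438 and 525. From 8 to 16 h it went from 534 lower and 775 higher to 864 and 512, and from 16 to 24 h from 420 and 377 to 328 and 509. Median-of-ratios scaling gave 298 lower and 374 higher at 4 h, 581 and 642 at 8 h, and 472 and 488 at 24 h. It gave 794 and 547 from 8 to 16 h, and 337 and 492 from 16 to 24 h. With all UMIs in the denominator the split was 583 and 188 at 4 h, and from 4 to 8 h it went from 146 lower and 79 higher to 84 and 148. With TMM scaling 6 enzymes in place of 10 were called lower at 8 h, namely Mvd, Idi1, Sqle, Lss, Msmo1 and Sc5d. None of the 55 called member ratios changed sign in 550 recomputed values. They were at least 2-fold by the rule, so that scaling shifts of the size given above could not have reversed them.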

How the data were processed

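Hepatocytes isolated from mouse liver were measured by 10x single-cell RNA sequencing, 1 library per time point. The deposited values were raw UMI counts per gene and barcode, which per the file headers came from Cell Ranger 6.0.1. The build was mm10 per the submitters' processing notes. Library and time were taken from the labels, and 0 columns were left unused. No doublets were called. The mitochondrial limits serve as the rule for hepatocytes.

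UMIs were summed over hepatocytes per library and scaled to the nuclear-encoded total of these cells (33521626 to 45532684 UMIs), giving CPM. Intervals are exact Poisson for CPM, exact conditional binomial for ratios and Clopper-Pearson for shares (95%), and cover counting error only. PCR and capture were not modelled beyond UMIs. Zone scores used log2(UMIs per 10000 + 1). The ratio script was tested on simulated Poisson counts, which held no variation between cells, animals or libraries. Positions and overlaps are from GENCODE M21 (GRCm38), which held 32235 of the gene IDs (99.8%). TMM factors came from edgeR 4.0.16 in R 4.3.3, and the rest ran in python 3.11.15 with scipy 1.17.1, numpy 2.4.6, matplotlib 3.10.9 and pandas 2.3.3. All 30 members are described, and of the other pathway genes those past 2-fold at 2 or more times are named with values. The members, lists and rules were chosen with earlier results of these data known. Alternatives covered scaling, the denominator, the mean over cells, the minimum CPM, mitochondrial limits, other cell types, genes per UMI and the zone score. A further one subtracted an assumed 10% of free RNA.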

Additional observations from a re-analysis of the deposited data

Results flagged for a closer look

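Hmgcs1 and Msmo1 moved in opposite directions in the outer zones between the fed and the 24 h library, and neither difference was tested. Hmgcs1 changed by a log2 ratio of 0.21 in the portal zone and -0.27 in the central zone. Msmo1 changed by 0.084 in the portal zone and -0.58 in the central zone. Each zone comes from 1 library per time point. The median portal to central log2 ratio of all genes moved from -0.071 when fed to 0.16 at 24 h, and that of the 19 enzymes from -0.16 to 0.24. In the fed library the median depth of the central zone was 2812 UMIs, and at 24 h it was 3028 UMIs, against 5719 and 11202 in the portal zone. Whether both libraries' zones cover the same stretch of the lobule was not tested. Cyp2e1 in the central zone was at 5406 CPM when fed and 2342 CPM at 24 h, 3.26% and 12.8% of its cells had no UMI of Cyp2f2 or Cyp2e1, and the central landmark genes over all hepatocytes summed to 3153 and 1466 CPM.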

How the results depend on the processing

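No paired analysis was possible because each time point had 1 library, and no library could be left out for the same reason. Of 344 recomputed values of 32 counts, 293 were within 1.5 times the main count. A higher minimum CPM leaves fewer genes by construction, and the cause of the other shifts below was not tested.

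At 4 h against fed, the enzymes called lower were 7 with all UMIs in the denominator and 9 with 2 to 15% mitochondrial UMIs, in place of 4, where the lower calls over all genes were 583 of 6871 and 902 of 7315, in place of 441 of 7299. The other members called higher were 1, in place of 2, with all UMIs, the mean of per-cell CPM or a minimum of 50 CPM. Over all genes 188 of 6871, 247 of 7245 and 169 of 2948 were higher there, in place of 268 of 7299. Those members were also 1 with no lower mitochondrial limit or 2 to 15%, beside 262 of 7263 and 347 of 7315 genes. At 8 h 6 enzymes in place of 10 were lower with TMM scaling, beside 529 of 7361 genes in place of 830 of 7389. At 16 h 1 enzyme was lower with a minimum of 50 CPM, beside 121 of 2994 genes in place of 265 of 7355. With 2 to 15% 1 enzyme was higher, beside 222 of 7392 genes in place of 211. The other members called lower were 2 with no minimum and 0 with no lower mitochondrial limit. Beside them 1926 of 15002 and 298 of 7357 genes were lower. At 24 h 1 other member was higher with no lower limit or with 2 to 15%. Beside it 495 of 7344 and 505 of 7410 genes were higher, in place of 348 of 7356.

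From 4 to 8 h 0 members were lower with per-cell CPM or 2 to 15%, beside 158 of 7038 and 254 of 7047 genes. With no minimum 1 member was higher, beside 687 of 14231 genes. From 8 to 16 h the lower members were 5 with TMM or median-of-ratios scaling, 4 with all UMIs, and 1 with 2 to 15% or 5 to 30%. Over all genes these were 864 of 7396, 794 of 7391, 630 of 7076, 506 of 7393 and 534 of 7361, in place of 534 of 7367. From 16 to 24 h they were 2 with either scaling and 3 with 5 to 30%, and 1 was higher with no lower limit.

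Over all genes the portal calls were 122 of 7367 when fed, 120 of 6965 at 8 h and 163 of 7186 at 16 h, and over the alternatives 50 to 486, 41 to 353 and 76 to 222. Central ones were 410, 208 and 350, and over the alternatives 135 to 1055, 93 to 474 and 164 to 512. The lowest of each came with the minimum of 50 CPM, with 2837, 2704 and 2877 genes tested. Fed members called portal were 0 with the score of 10 landmark genes per end, with 5 to 30% or without other cell types. They were 2 with no lower limit. In these settings 163 of 7379, 85 of 7156, 121 of 7249 and 486 of 7365 of all genes were portal. Fed members called central were 4 with landmarks, 0 with a minimum of 50 CPM, and 1 with 5 to 30% or without other cell types. Over all genes the central calls there were 376 of 7379, 135 of 2837, 156 of 7156 and 310 of 7249. At 4 h portal members were 1 with 4 ranges in place of 3, 2 with no lower limit and 7 with 2 to 15%, and central ones 2 with 2 to 15%. Over all genes at 4 h, portal calls were 320 of 7009, 927 of 6982 and 2142 of 6880, in place of 281 of 6982, and central ones with 2 to 15% 913 in place of 359. At 8 h portal members were 1 with 4 ranges and 2 with no lower limit, beside 184 of 7036 and 353 of 7017 genes. Central members at 8 h were 2 with 5 to 30%, beside 184 of 6942 genes. At 16 h central members were 1 with 4 ranges or 2 to 15%, beside 512 of 7210 and 431 of 7227 genes. Portal members at 16 h were 2 with 2 to 15%, beside 187 of 7227 genes. Over all genes at 24 h, 595 of 6969 were portal in the main setting, 950 of 6974 with 4 ranges, 2969 of 7063 with no lower limit, 3458 of 7270 with 2 to 15% and 60 of 6889 with 5 to 30%. At 24 h portal members were 9 with 4 ranges, 18 with no lower limit, 20 with 2 to 15%, 0 with 5 to 30% and 5 with log10 genes over log10 UMIs of at least 0.80, and central ones 1 with landmarks and 0 with 5 to 30%. The portal to central ratio of Hsd17b7 at 4 h reversed to 0.19 with 2 to 15%.

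Depth limits the rarest members. Mylip rested on 137, 7, 13, 59 and 52 UMIs per library, so that its ratios carry wide counting intervals.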
